A study of Mus musculus with 2 samples.

Results

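Mir134, Mir329, Mir381 and Mir485 are 4 microRNA genes that lie together in the imprinted Dlk1-Dio3 region of mouse chromosome 12. They were chosen by name: the gene IDs of both count tables were matched to GENCODE M21 symbols, and these 4 were taken from 2202 microRNA genes. Small RNA was sequenced from hippocampus, which the labels call a layer of it, of adult male mice aged 8 to 10 months whose strain label is 5xFAD/CAST. 5xFAD mice carry transgenes with familial Alzheimer mutations and develop amyloid plaques, and CAST mice descend from wild-caught animals. The design held 1 group of 2 libraries, numbered in the labels as biological replicates 2 and 1, and both carry the same genotype label. The labels give each library its own tissue record and the pair a single donor record, so separate animals are not established, and every difference between the libraries may be technical. No untreated, non-transgenic or other-strain sample was analysed here, so nothing below is an effect of genotype, age or disease.

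A microRNA is a short RNA cut from a hairpin; bases 2 to 8 of the mature strand, the seed, pair with messenger RNAs and lower their translation or stability. The microRNAs of the stretch from Mir379 to Mir410 are processed from long noncoding RNA of the maternal chromosome, and in rat neurons activity raises their transcription through the factor Mef2. In rat hippocampal neurons miR-134 acts in dendrites: it represses Limk1, a kinase that shapes the actin of dendritic spines, and Pumilio2, itself a repressor of translation. In rat neurons miR-329 and miR-381 are, with miR-134, known to be needed for activity-dependent growth of dendrites. In rat hippocampal neurons miR-485 is known to lower the synaptic vesicle protein SV2A and to take part in homeostatic scaling of synapses.

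The mature sequences below are shown so that the seeds of the 4 genes can be compared. They are from RefSeq (GRCm38.p6), 5′ to 3′, with the seed in capitals. All 4 genes had an entry, with 7 mature sequences, of which the one for Mir485 is its 3p strand. No seed recurs among these 7 sequences. No 5p sequence of Mir485 was among them, so a 5p seed of that hairpin was not compared here or below.
mmu-miR-134-5p: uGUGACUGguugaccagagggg
mmu-miR-134-3p: cUGUGGGCcaccuagucacc
mmu-miR-329-5p: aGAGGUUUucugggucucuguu
mmu-miR-329-3p: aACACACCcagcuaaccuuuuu
mmu-miR-381-5p: aGCGAGGUugcccuuuguauauu
mmu-miR-381-3p: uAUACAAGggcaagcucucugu
mmu-miR-485-3p: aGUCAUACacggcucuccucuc

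Counts were deposited per hairpin gene, so the 5p and 3p strands of a hairpin cannot be told apart in any value below. The hairpins lie on the plus strand of mm10 chromosome 12. Mir329 (ENSMUSG00000065577.1) spans 109713481 to 109713577 and Mir381 (ENSMUSG00000098838.2) spans 109726822 to 109726896; M21 places both outside other annotated genes, ahead of the noncoding gene Mirg (109729764 to 109749460). Mir134 (ENSMUSG00000065426.3) spans 109734139 to 109734209 and Mir485 (ENSMUSG00000070128.3) spans 109734902 to 109734974. Both of these lie whole inside an exon of Mirg, on its strand.

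None of the 4 hairpins holds a stretch of 20 bases that recurs in a microRNA gene elsewhere, whereas 81 of the 389 detected genes do. Detected means at least 10 reads in both libraries. The longest stretch shared with another microRNA gene was 16 bases in Mir381 (with Mir300), 15 in Mir329, and 13 each in Mir134 and Mir485. No read of any of the 4 genes was counted on the opposite strand in either library. Their counts were the same in the column that disregards strand.

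Reads assigned to microRNA genes numbered 2820468 in replicate 2 and 3421977 in replicate 1. Levels are given as CPM, a gene's reads scaled to a common total of assigned reads, and intervals are exact 95% intervals that cover counting error only. Each read was taken to stand for 1 mature microRNA, so CPM was not divided by length. Whether different hairpins yield equal reads per molecule was not tested, so levels compare reads and not molecules. Ratios per base of the hairpin are given only for Mir381 over Mir134. As a check of the tissue, the neuron markers took 3.36% of assigned reads in replicate 2 and 3.29% in replicate 1 (8 of 12 genes detected). Mir124a-2 and Mir124a-3, which share their sequence with a further copy, had no read. Mir124a-1 (5 reads in each library) and Mir9-2 (3 in replicate 2 and 7 in replicate 1) were not detected either. Both share at least 20 bases with another microRNA gene. No Mir124a gene was thus detected, so the neuron share holds few reads of these genes. The erythroid markers took 0.00599% and 0.00476% (3 of 3 detected), and those of liver and muscle 0.00503% and 0.00514% (2 of 6 detected), in replicate 2 and replicate 1. Of the 6 liver and muscle markers, 2 had no read in either library. Mir1a-2 and Mir133a-1 had 1 read each in replicate 1 and were not detected, and each shares at least 20 bases with another microRNA gene. Their low counts thus say little about the tissue. In bulk tissue, fewer cells of a type and less RNA per cell cannot be told apart.

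All 4 genes were detected in both libraries, and together they took 0.417% of assigned reads in replicate 2 (interval 0.410 to 0.425) and 0.295% in replicate 1 (0.289 to 0.300). Mir485 held most of these reads. It had 7893 reads in replicate 2 and 6579 in replicate 1, which is 2798 CPM (2737 to 2861) and 1923 CPM (1876 to 1969.6). It averaged 2361 ± 619 CPM (SD, n = 2) and ranked 51 of 389 detected genes in replicate 2 and 63 in replicate 1. The Mir485 hairpin thus received several times the reads of any of the other 3 hairpins in both libraries.

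The Mir134 hairpin had 1067 reads in replicate 2 and 1847 in replicate 1. These are 378 CPM (356 to 402) and 539.7 CPM (515 to 565), with a mean of 459 ± 114 CPM (SD, n = 2). It was lower in replicate 2, where it ranked 140, against rank 115 in replicate 1.

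Mir381 had 2268 reads in replicate 2 and 1177 in replicate 1, or 804 CPM (771 to 838) and 344 CPM (325 to 364). Its mean of 574 ± 325 CPM (SD, n = 2) had the widest relative spread of the 4 genes, with an SD of 56.7% of the mean. Mir381 stood higher in replicate 2, at rank 102, than in replicate 1, at rank 137.

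Mir329 was the scarcest of the 4 genes in both libraries. It had 535 reads in replicate 2 and 478 in replicate 1, or 189.7 CPM (174 to 206) and 139.7 CPM (127 to 153), with a mean of 165 ± 35.4 CPM (SD, n = 2). Its rank was 164 in replicate 2 and 172 in replicate 1. For comparison, the median over detected genes was 107 CPM in replicate 2 and 86.2 CPM in replicate 1, so all 4 genes lay above the median gene in both.

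**Figure D1:**
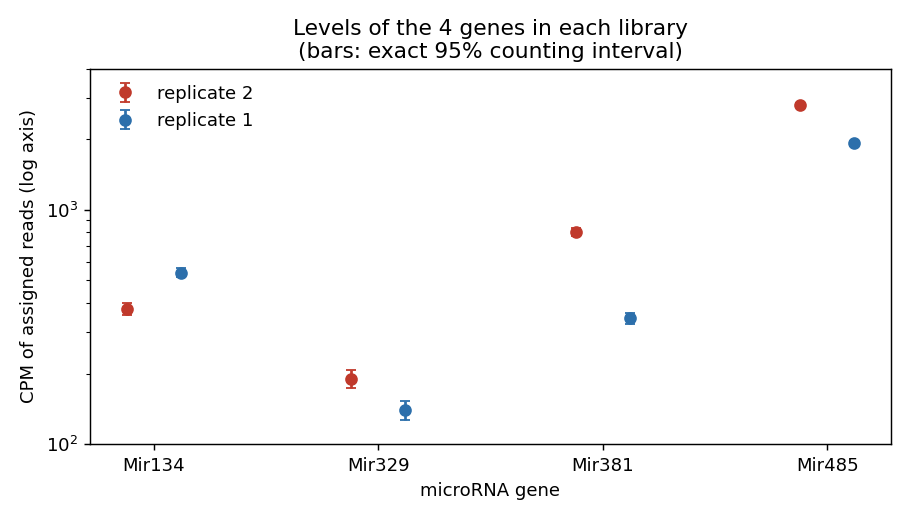
CPM of assigned reads (log axis) of Mir134, Mir329, Mir381 and Mir485, with replicate 2 in red and replicate 1 in blue; bars are exact 95% counting intervals, smaller than the points for Mir485. Mir485 is highest and Mir329 lowest in both libraries, while Mir134 and Mir381 change places.

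The order of the 4 genes by level held at its ends and not in its middle. Mir485 (1923 to 2798 CPM over the libraries) did not overlap Mir381 (344 to 804 CPM), and Mir329 (139.7 to 189.7 CPM) did not overlap Mir134 (378 to 539.7 CPM). Mir381 and Mir134 overlapped, and these neighbours cannot be ranked from 2 libraries. Ratios of reads within a library need no scaling between libraries: Mir381 had 2.13 reads per read of Mir134 in replicate 2 (interval 1.98 to 2.29) and 0.637 in replicate 1 (0.592 to 0.686). Per base of the hairpin these ratios were 2.01 in replicate 2 and 0.603 in replicate 1, so the order in each library was the same.

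The ratio of the most to the least abundant gene differed less between the libraries than those of the other pairs. Mir485 had 14.8 reads per read of Mir329 in replicate 2 (13.5 to 16.1) and 13.8 in replicate 1 (12.5 to 15.1), and these intervals overlap. Mir485 over Mir134 was 7.40 in replicate 2 (6.94 to 7.89) and 3.56 in replicate 1 (3.38 to 3.75). Mir134 over Mir329 was 1.99 in replicate 2 (1.80 to 2.22) and 3.86 in replicate 1 (3.49 to 4.28). Mir134 thus made up less, relative to both, in replicate 2. Mir485 over Mir381 was 3.48 in replicate 2 (3.32 to 3.65) and 5.59 in replicate 1 (5.25 to 5.95). Mir381 over Mir329 was 4.24 in replicate 2 (3.86 to 4.67) and 2.46 in replicate 1 (2.21 to 2.74). For every pair of the 4 genes other than Mir485 and Mir329, the intervals of the 2 libraries did not overlap. These intervals cover counting error only. By the exact binomial test below, which also holds counting error only, 67.6% of all detected genes were called different between the libraries. Overlap was not counted for other pairs of detected genes, so its absence says little about these pairs.

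The libraries were compared gene by gene with a two-sided exact binomial test on TMM-scaled counts, with Benjamini-Hochberg adjustment over the 389 detected genes. This compares 2 libraries and not conditions. It called 67.6% of detected genes different (33.9% higher and 33.7% lower in replicate 2), so a call is common and says little about a single gene. All 4 genes were called, 3 of them higher and 1 lower in replicate 2.

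Mir381 was 2.18-fold higher in replicate 2 (log2 ratio 1.13, interval 1.02 to 1.23; exact binomial adjusted p = 4.36e-110). Mir485 had a log2 ratio of 0.44 (0.40 to 0.49; exact binomial adjusted p = 4.25e-75) and Mir329 one of 0.34 (0.16 to 0.52; exact binomial adjusted p = 0.000329). Mir134 went the other way, with a log2 ratio of -0.61 (-0.72 to -0.50; exact binomial adjusted p = 1.52e-28). The median log2 ratio of the 4 genes was 0.39, beside 0.053 over all detected genes, and their median distance from 0 was 0.53, beside 0.52 over all detected genes.

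With the spread of the 2 libraries as the error, none of the 4 genes passed. In the edgeR exact test, with a common biological coefficient of variation of 0.41, the adjusted p was 1 for each of the 4, and the unadjusted p lay between 0.195 (Mir381) and 0.694 (Mir329). That test called 2 of the 389 genes (0.514%), and 23 (5.91%) had an unadjusted p under 0.05. Because the 2 libraries compared also supply its error, a gene that misses the threshold is not shown to be level between them.

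**Figure D2:**
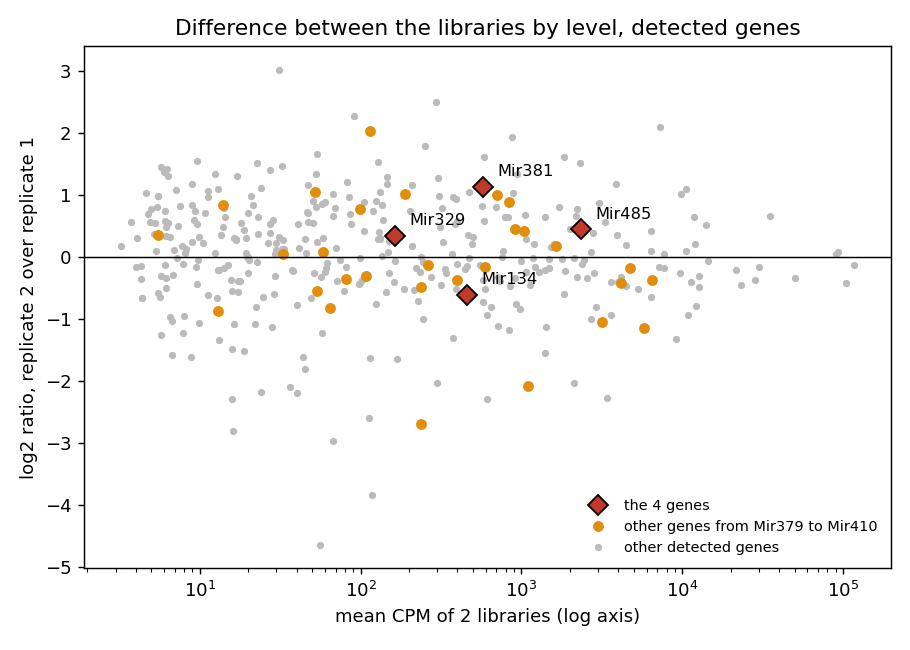
Log2 ratio of replicate 2 over replicate 1 (TMM-scaled) against mean CPM (log axis) for the 389 detected genes; the 4 genes are red diamonds, other genes from Mir379 to Mir410 orange and all others grey. The 4 genes, from -0.61 to 1.13, lie inside the cloud of genes of like level.

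Other measures moved between the libraries beside these 4 genes. Unmapped reads were 22.6% of all reads in replicate 2 and 16.6% in replicate 1. Epithelial markers (6 of 8 detected) took 0.0111% of assigned reads in replicate 2 and 0.0712% in replicate 1. Endothelial and mural markers (3 of 3 detected) took 1.32% and 2.17%, and choroid plexus and ependyma markers (5 of 7 detected) 0.164% and 0.342%, in replicate 2 and replicate 1. Oligodendrocyte markers (2 of 3 detected) took 0.667% and 0.503%, and those of microglia and leukocytes (5 of 5 detected) 0.346% and 0.407%, in the same order. The part of any of these in the differences of the 4 genes was not tested.

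Hairpin GC content was set beside the log2 ratios, with a lowess fit over detected genes that was chosen after seeing the data. Mir134 had the highest GC content of the 4, at 60.6%, and was the one lower in replicate 2, where the fit gave 0.36 at that GC content. Mir381 had the lowest, at 40.0%, with a fitted value of -0.19 against its own 1.13. Mir329 had 42.3% and Mir485 47.9%, against a median of 52.1% over detected genes. After the fit was subtracted, the log2 ratio was 1.32 for Mir381, 0.46 for Mir329, 0.45 for Mir485 and -0.97 for Mir134. The part of GC content in these differences was not tested.

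**Figure D3:**
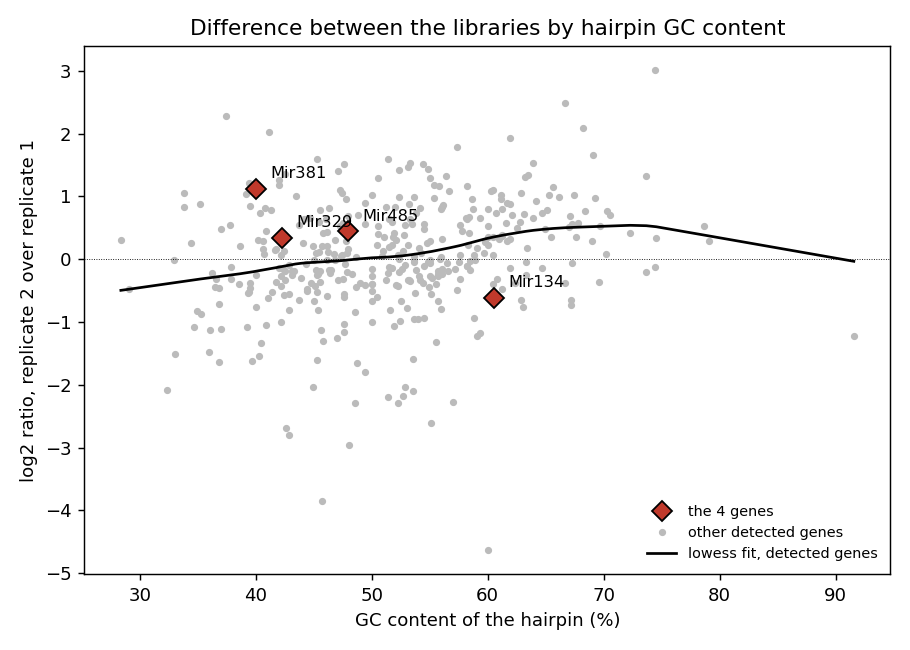
Log2 ratio of replicate 2 over replicate 1 against hairpin GC content (%) for the 389 detected genes, with the 4 genes as red diamonds and a lowess fit as a black line. Mir381, at 40.0% GC, lies above the line and Mir134, at 60.6% GC, below it.

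The stretch from Mir379 to Mir410 holds 38 annotated microRNA genes on the plus strand within 34.74 kb, of which 33 were detected. M21 places 13 of them inside Mirg and 25 ahead of it. The whole stretch took 3.33% of assigned reads in replicate 2 (3.31 to 3.35) and 4.00% in replicate 1 (3.98 to 4.03), so it was lower in replicate 2 while the sum of the 4 genes was higher there. The median level of its detected genes was 259 CPM in replicate 2 and 344 CPM in replicate 1. The 5 most abundant genes were Mir382 (6449 ± 859 CPM), Mir487b (5789.8 ± 2865 CPM), Mir541 (4709 ± 188 CPM), Mir411 (4158 ± 657 CPM) and Mir379 (3185 ± 1436 CPM; SD, n = 2 each). Mir487b and Mir411 share at least 20 bases with another microRNA gene and are less certain.

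Within the stretch Mir485 held 8.40% of the reads in replicate 2 and 4.80% in replicate 1, and ranked 5 and 6 of the 38 genes in these libraries. Mir381 held 2.41% in replicate 2 and 0.859% in replicate 1, at ranks 12 and 17. Mir134 held 1.14% in replicate 2 and 1.35% in replicate 1, at ranks 15 and 13. Mir329 held 0.569% in replicate 2 and 0.349% in replicate 1, at rank 20 in both. None of the 4 genes had the most reads of the stretch in either library. These ranks compare reads and not molecules. Mir487b and Mir411 ranked above Mir485 in both libraries, but they share sequence with another microRNA gene and their ranks are less certain.

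**Figure D4:**
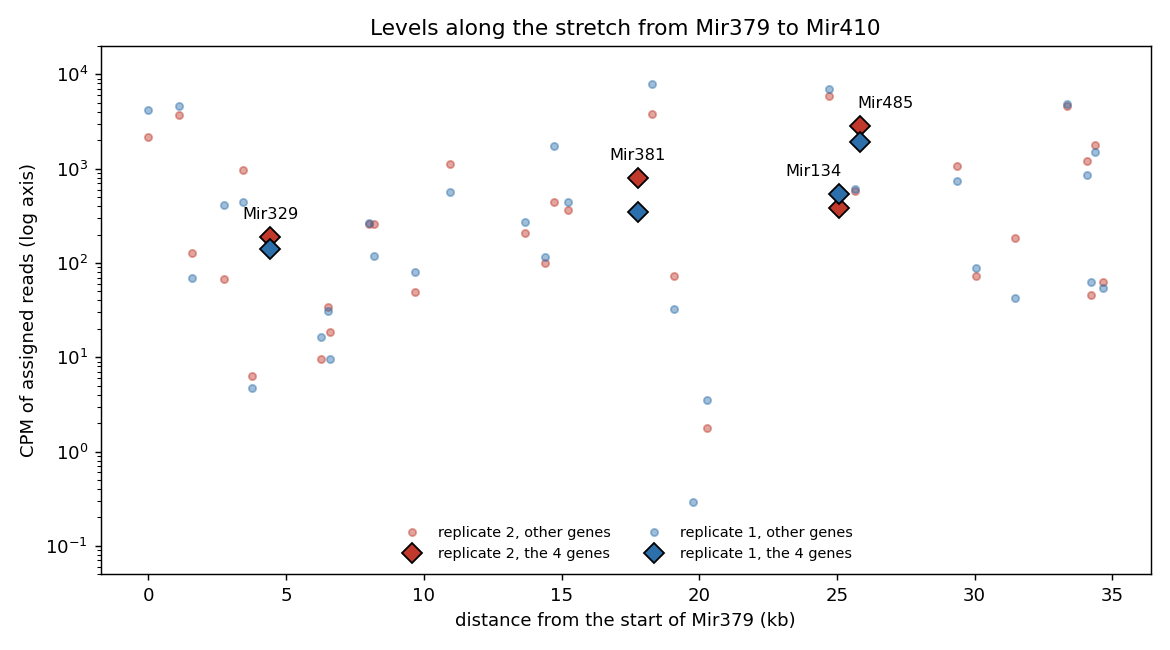
CPM of assigned reads (log axis) against distance from the start of Mir379 (kb) for the microRNA genes of the stretch, replicate 2 in red and replicate 1 in blue, with Mir134, Mir329, Mir381 and Mir485 as diamonds; genes without a read in a library are not drawn for it. High and low genes are mixed along the stretch, and Mir485 and Mir134 lie close together near 25 kb with unequal levels.

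Some genes side by side in the stretch differed in level by large factors, and others lay closer. Mir668 ends 104 bases ahead of Mir485 and had 580.0 CPM in replicate 2 and 606 CPM in replicate 1, against 2798 and 1923 CPM for Mir485. No read fell on Mir453, the next gene after Mir485, in either library; at this depth a count of 0 allows up to 1.06 CPM in replicate 2 and 0.877 CPM in replicate 1 (3 reads). Mir382 ends 292 bases ahead of Mir134 and had 5842 CPM in replicate 2 and 7056 CPM in replicate 1, more than 10 times the level of Mir134 in each. On its other side, 522 bases on, Mir134 has Mir668, which lay closer in level. Mir134 had 378 CPM in replicate 2 and 539.7 CPM in replicate 1, against 580.0 and 606 CPM for Mir668.

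On either side of Mir329, Mir758 had 6.38 CPM in replicate 2 and 4.68 CPM in replicate 1, and Mir494 had 9.57 and 16.4 CPM in the same libraries. Mir758 shares sequence with another microRNA gene and is less certain. Mir329 thus lay well above both of its neighbours in each library. Around Mir381, Mir300 had 363 CPM in replicate 2 and 437 CPM in replicate 1, and Mir487b had 3764 CPM in replicate 2 and 7816 CPM in replicate 1.

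Direction between the libraries also changed from gene to gene along the stretch. Of its 33 detected genes, 13 were called higher and 16 lower in replicate 2 and 4 were not called. Their median log2 ratio was -0.14, with a range of -2.69 to 2.03. The exact binomial test called 67.6% of all 389 detected genes, and 208 of 241 once the count minimum was raised to 100. Calls were thus common outside the stretch too, and whether they were more frequent in it was not tested. Mir381 (1.13) sits between Mir300 (-0.37, interval -0.49 to -0.25) and Mir487b (-1.15, interval -1.19 to -1.12), which were both lower in replicate 2. Mir485 (0.44) follows Mir668 (-0.16, interval -0.26 to -0.069). Mir134 (-0.61) lies between Mir382 (-0.37, interval -0.40 to -0.34) and Mir668, and all 3 were lower in replicate 2. By the edgeR exact test none of the 33 genes passed.

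**Figure D5:**
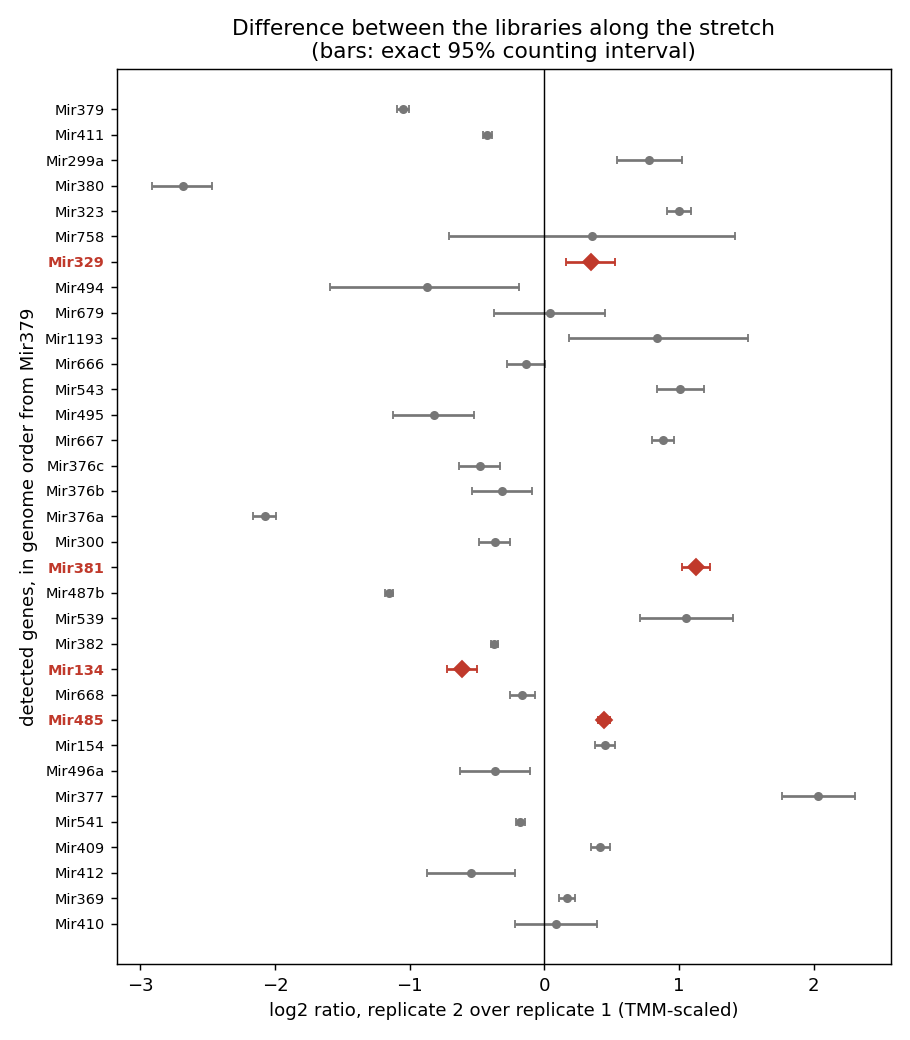
Log2 ratio of replicate 2 over replicate 1 (TMM-scaled) for the 33 detected genes of the stretch, from Mir379 at the top to Mir410 at the bottom, with exact 95% counting intervals and the 4 genes in red. Some neighbours fall on opposite sides of 0, as Mir381 (1.13) and Mir487b (-1.15) do.

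A pair of mature microRNAs outside these 4 genes carries the same seed as one of the sequences listed for them. They are shown because microRNAs with one seed can bind the same sites. The first shares its seed with miR-329-3p and the second with miR-134-3p, and both genes lie on the X chromosome.
mmu-miR-362-3p: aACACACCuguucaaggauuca
mmu-miR-3620-5p: cUGUGGGCugggcugggaagca

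Mir362 had 63 reads in replicate 2 and 53 in replicate 1 (22.3 and 15.5 CPM), well under the 189.7 and 139.7 CPM of Mir329. No read was assigned to Mir3620 in either library. The counts are per hairpin and do not separate the 3p strand from the 5p strand.

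The hairpin of Mir300, the gene that precedes Mir381, shared the longest run of bases with that of Mir381. Its miR-300-3p is set beside miR-381-3p here, and other mature sequences of the stretch were not compared with miR-381-3p. The sequence is shown with its own seed in capitals.
mmu-miR-300-3p: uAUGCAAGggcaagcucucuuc
Of the 22 bases of these 3p forms 19 are alike, with the substitutions A4G, G21U and U22C, written as the base of miR-381-3p, its position from the 5′ end and the base of miR-300-3p. The first of these lies in the seed, so the seeds differ by 1 base. Mir300 averaged 400.1 ± 52.9 CPM (SD, n = 2), and Mir381 exceeded it in replicate 2 (804 against 363 CPM) and not in replicate 1 (344 against 437 CPM).

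By distance on log2(CPM + 1) over the 2 libraries, the detected genes most like Mir485 in level were Mir187 (distance 0.24) and Mir874 (0.29), and those most like Mir381 were Mir425 (0.23) and Mir15a (0.35). Those most like Mir134 were Mir181a-1 (0.30) and Mir300 (0.31), and those most like Mir329 were Mirlet7a-2 (0.088) and Mir16-1 (0.20). Only Mir300 lies on chromosome 12. Mir181a-1, Mirlet7a-2 and Mir16-1 share at least 20 bases with another microRNA gene, so their levels are uncertain.

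Beside other microRNAs known for roles in dendrites and synapses, encoded outside the region, Mir485 lay above the median level and the other 3 genes below it in both libraries. That list has 8 genes, all detected, with a median of 1612 CPM in replicate 2 and 1307 CPM in replicate 1; both copies of Mir138 and both of Mir125b share sequence and are uncertain. Mir132, which activity induces through CREB, had 11794 CPM in replicate 2 and 13708 CPM in replicate 1, several times the level of Mir485. Mir212, made from the same transcript as Mir132, had 416 CPM in replicate 2 and 198 CPM in replicate 1, and overlapped the ranges of Mir134 and Mir381. Mir188 had 140.05 CPM in replicate 2 and 130.04 CPM in replicate 1, close to Mir329. Of the 8 genes, 4 were called higher and 3 lower in replicate 2 by the exact binomial test and 1, Mir188, was not called (log2 ratio 0.0080, interval -0.19 to 0.21); none passed the edgeR exact test.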

How the data were processed

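For each microRNA gene the authors deposited unnormalised read counts in 3 columns: strand ignored, the gene's strand (used here) and the other strand. Assembly mm10 and GENCODE M21 are named in the text notes deposited with the libraries. Aligner, counter and trimming: not given in the sources used here. The first 4 rows of each table, which name no gene, took 67.0% of reads in replicate 2 and 64.8% in replicate 1; neither library sizes nor tests used them. Among them, reads with several alignments made up 38.2% of all reads in replicate 2 and 41.6% in replicate 1.

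CPM used assigned reads as the library size. Log2 ratios used TMM factors (edgeR 4.0.16, R 4.3.3) and exact binomial tests and Clopper-Pearson intervals (scipy 1.17.1), checked on simulated Poisson counts. The simulated counts held counting error only, so that check does not cover further spread between libraries. A ratio is replicate 2 over replicate 1. Intervals cover counting error only, and the counts hold no molecular identifiers. DESeq2 1.42.0 gave alternative size factors. The adjusted-p threshold was 0.05. The GC fit was a lowess of span 0.5 (statsmodels 0.14.6).

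The 4 genes and all lists were chosen with earlier results of these data known. Named genes were the 4 genes, their neighbours, the 5 most abundant of the stretch, the 2 nearest in level, genes sharing a seed, and the dendrite list. Alternatives were scaling, count minimum, strand column, test, length and leaving out a library.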

Additional observations from a re-analysis of the deposited data

How the results depend on the processing

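Under library totals, DESeq2 size factors, a minimum of 100 reads, no minimum and the column that disregards strand, the log2 ratios of Mir134, Mir329, Mir381 and Mir485 kept their sign and their side of the threshold (exact binomial test). Under the edgeR exact test the ratios were -0.61, 0.34, 1.13 and 0.44 and none passed (adjusted p = 1 for each), and 2 genes in all were called in place of 263; the error of that test comes from the same 2 libraries. After the GC fit, an alternative chosen after seeing the data, Mir134 stood at -0.97 and Mir381 at 1.32. The log2 level of Mir381 over Mir134, 0.32 on mean CPM, was -0.65 without replicate 2 and 1.09 without replicate 1, so 1 library decides that order. With a single library, the log2 level of Mir485 over Mir381 ranged from 1.80 to 2.48 and that of Mir134 over Mir329 from 1.00 to 1.95. The share of the 4 genes ranged from 0.295% to 0.417% and that of the stretch from 3.33% to 4.00%. As a percent of all reads, those without a gene name included, the shares were 0.121% and 1.25%. No paired analysis was possible because the design has 1 group, so the replicate numbers pair nothing. Depth limits the scarcest genes of the stretch, such as Mir758 with 18 and 16 reads in replicate 2 and replicate 1.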

Other observations

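In the same stretch, 5 genes had reads on their own strand and none in the column that disregards strand: Mir299a, Mir380, Mir376a, Mir539 and Mir409. Each overlaps a microRNA gene annotated on the minus strand. Mir376a had 1257 reads in replicate 2 and 6014 in replicate 1 on its own strand, and Mir409 had 3422 and 2907 in the same libraries. Their overlapping partners had 2 reads in all over both libraries, both at Mir299b in replicate 1. The 4 genes described above have no such partner, and their counts were equal in both columns.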
